A study of Homo sapiens with 12 samples.

Results

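CCL2, CCL5, CCL20, CCL26 and CCL28 are the 5 CC chemokine genes described here, of 26 CC chemokine genes and 20375 genes in all in the files. CCL26 was chosen by its rise in treated cells, so its values against control are given as a description with no test. The other 4 are tested, but all members and gene lists were chosen with earlier results of these data known. The rises of CCL2 and CCL20 were already known from that earlier look and are not independent support for one another. RNA sequencing had been run on PE/CA-PJ41, an established human oral squamous cell carcinoma line. The cells had received 10% platelet-rich plasma (PRP, human plasma enriched in platelets) for 48 h, or 10% human plasma for 48 h, or neither (control), with 4 libraries in each group. No culture time is given for control, and nothing in the labels says that the libraries of a group came from separate cultures. The p-values therefore speak only of how far these libraries scatter, and that scatter may be technical. All groups are a single cell line, and the labels name no donor of the plasma or PRP.

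CC chemokines are small secreted proteins, named for a pair of adjacent cysteines, that draw leukocytes along a concentration gradient by way of G protein-coupled receptors. CCL2 attracts monocytes through CCR2, CCL5 attracts T cells and monocytes, and CCL20 attracts dendritic cells and lymphocytes through CCR6. CCL26 (eotaxin-3) attracts eosinophils through CCR3, and epithelial cells are known to make it under IL4 and IL13 through the transcription factor STAT6. CCL28 is a mucosal epithelial chemokine that acts through CCR10 and CCR3. NF-kB is a known activator of the CCL2, CCL5 and CCL20 genes, and AU-rich elements of the 3′ UTR (the message beyond the coding sequence) are known to mark some chemokine messages for decay.

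The promoter windows of CCL20 and CCL26 are shown as a description. These genes were picked after their differences from control and their upstream letters were seen, so nothing is read from the contrast. The CCL28 windows are not printed. Each run is the 250 bases before the transcription start in RefSeq (GRCh38.p14), read along the gene's strand. The gene spans given further on are those of GENCODE 29 and reach further upstream than these RefSeq starts, so the CCL20 window lies inside its span and the CCL26 window partly inside. The CCL20 window is chr2:227813592-227813841 on the plus strand, and the CCL26 window is chr7:75789747-75789996 on the minus strand. Capitals mark a match to the kappa B consensus, the letters that NF-kB binds, found here on the opposite strand.
CCL20: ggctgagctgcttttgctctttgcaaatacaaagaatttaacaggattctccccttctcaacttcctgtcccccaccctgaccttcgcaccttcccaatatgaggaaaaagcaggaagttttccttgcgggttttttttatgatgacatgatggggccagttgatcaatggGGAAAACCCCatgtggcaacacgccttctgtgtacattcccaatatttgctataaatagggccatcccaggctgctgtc
CCL26: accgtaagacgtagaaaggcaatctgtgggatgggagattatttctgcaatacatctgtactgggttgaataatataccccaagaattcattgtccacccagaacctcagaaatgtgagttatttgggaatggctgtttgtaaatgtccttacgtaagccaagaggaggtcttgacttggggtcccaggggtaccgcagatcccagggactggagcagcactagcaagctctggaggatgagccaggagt
The match in CCL20 lay 79 to 70 bases before the start, and a TATAAA, not capitalised, lay 29 to 24 bases before it. The windows were searched on both strands for the kappa B consensus, the STAT sites TTCNNNGAA and TTCNNNNGAA, the AP-1 site TGANTCA, the interferon response core (GAAA, any 2 bases, GAAA) and TATAAA, and the STAT spacings can overlap one another. These letters were not in the CCL26 window or in either of the 2 CCL28 windows, which says nothing of the factors themselves. Of 35116 promoter windows of the same length, 9.96% held the kappa B consensus and 10.7% held TATAAA. The shares were 6.57% for TTCNNNGAA, 5.38% for TTCNNNNGAA, 6.57% for TGANTCA and 3.02% for the interferon response core.

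The 3′ UTRs differed in AU-rich pentamers, ATTTA, counted in 1 GENCODE 29 transcript a gene. CCL20 held 3 in 451 bases, CCL28 held 7 in 2667 bases and CCL2 held 1 in 376 bases, while CCL5 had 0 in 886 bases and CCL26 had 0 in 160 bases. The 30 bases with the most pentamers are printed for the members that hold any, with the pentamers in capitals.
CCL2: tatgccttaagtaatgttaattcttATTTA
CCL20: ttaaagttaaactgtattttatgttATTTA
CCL28: tcattgactATTTAgcATTTAATTTATTTA
The CCL28 stretch starts at base 2301 of its 3′ UTR and holds 4 pentamers, of which the last 2 overlap. The longer motif TTATTTATT occurred 1 time in CCL28 and 0 times in the other 4 members. Over 18917 genes, the median 3′ UTR was 877 bases with 1 ATTTA, 37.4% held 3 or more, and 7.52% held TTATTTATT.

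CCL2, CCL20 and CCL28 were higher in both treated groups than in control, CCL26 was higher by about the same factor as CCL20, and CCL5 did not pass the test in either comparison. Against control, 3 of the 4 tested members passed in PRP and the same 3 passed in plasma, with both comparisons sharing the 4 control libraries. Levels are in TPM, transcript abundance relative to all transcripts of the library, after division by effective transcript length, and tests used limma on log2(TPM + 1) over 12517 genes with Benjamini-Hochberg adjustment at 0.05. Under this test 21.7% of all genes were higher and 31.5% lower in PRP than in control, and 20.3% were higher and 29% lower in plasma than in control. The PRP libraries held 36943548 to 41976136 reads, the plasma libraries 36258955 to 41946780 and the control libraries 40166503 to 41531218. In every group libraries 3 and 4 differed least from each other (chi-square per degree of freedom 7.10 in PRP, 4.51 in plasma and 3.79 in control), so results are also given within libraries 1 and 2 and within libraries 3 and 4, a split chosen after seeing the data. Because that split rests on the likeness of libraries 3 and 4, p-values within the pairs are a description only. In such bulk samples, fewer cells of a type and less RNA per cell cannot be told apart.

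**Figure D1:**
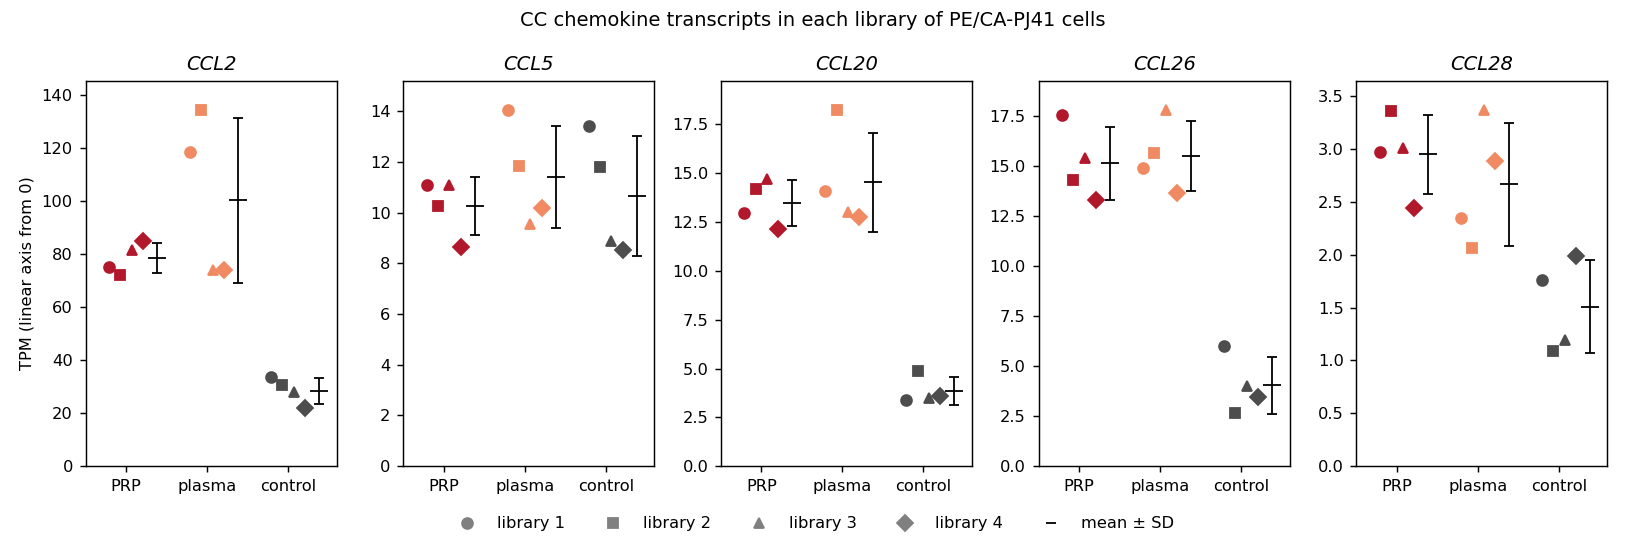
TPM (linear axes from 0) of the 5 CC chemokine genes in each library, with PRP, plasma and control from left to right, symbols for the library number and bars for the mean ± SD of 4 libraries. CCL2, CCL20, CCL26 and CCL28 lie higher in every treated library than in every control library, while the CCL5 groups overlap.

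CCL2 (chr17:34255218-34257203, plus strand, GRCh38), the monocyte attractant, was the most abundant member in all 12 libraries. It had 75.4, 72.3, 81.6 and 84.8 TPM in PRP libraries 1 to 4, against 118.6, 134.6, 73.9 and 74.2 TPM in plasma libraries and 33.7, 30.5, 27.9 and 22.0 TPM in control libraries. Every treated library lay above every control library, and the first 2 plasma libraries stood well above the other 2. The mean was 78.5 ± 5.72 TPM in PRP, 100.3 ± 31.1 TPM in plasma and 28.5 ± 4.94 TPM in control (SD, n = 4 each). The ratio of means was 2.75 for PRP over control and 3.52 for plasma over control. On the log2(TPM + 1) scale CCL2 was 1.44 higher in PRP than in control (SE 0.17, adjusted p = 1.22e-05) and 1.74 higher in plasma than in control (SE 0.17, adjusted p = 2.85e-06). These values rested on 852 to 1135 estimated reads a library in PRP, 982 to 1536 in plasma and 289 to 415 in control.

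CCL20 (chr2:227805739-227817564, plus strand), the CCR6 ligand whose upstream window is printed above, rose in both treatments. It had 12.9, 14.2, 14.7 and 12.1 TPM in PRP libraries 1 to 4, against 14.1, 18.3, 13 and 12.8 TPM in plasma libraries and 3.38, 4.89, 3.49 and 3.61 TPM in control libraries. The lowest treated library was well above the highest control library, which was control library 2. CCL20 averaged 13.5 ± 1.18 TPM in PRP, 14.5 ± 2.55 TPM in plasma and 3.84 ± 0.705 TPM in control (SD, n = 4 each), ratios of 3.51 for PRP over control and 3.78 for plasma over control. The log2(TPM + 1) difference was 1.59 in PRP against control (SE 0.12, adjusted p = 1.29e-07) and 1.68 in plasma against control (SE 0.12, adjusted p = 1.05e-07). Behind these were 163 to 230 reads a library in PRP, 198 to 237 in plasma and 47 to 63 in control, so CCL20 was measured on fewer reads than CCL2.

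CCL26 (chr7:75769533-75789896, minus strand), the eosinophil attractant, had 17.6, 14.3, 15.4 and 13.3 TPM in PRP libraries 1 to 4, against 14.9, 15.7, 17.8 and 13.6 TPM in plasma libraries and 6.01, 2.65, 4.02 and 3.44 TPM in control libraries. The treated libraries lay above the control libraries with no overlap. Since the gene was chosen for this, nothing is read from it. CCL26 averaged 15.1 ± 1.82 TPM in PRP, 15.5 ± 1.75 TPM in plasma and 4.03 ± 1.44 TPM in control (SD, n = 4 each), with ratios of 3.75 for PRP over control and 3.85 for plasma over control. Its log2(TPM + 1) differences from control were 1.72 in PRP and 1.75 in plasma. CCL26 is a short message, with an effective length of 215 to 248 bases over the 12 libraries, so that a level like that of CCL20 came from 88 to 102 reads in PRP libraries, 87 to 122 in plasma libraries and 15 to 38 in control libraries. Its control libraries varied more than those of any other member, with a coefficient of variation of 35.6%.

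CCL28 (chr5:43376645-43412391, minus strand), the mucosal chemokine, was the least abundant member in all 12 libraries and rose by a smaller factor. It had 2.97, 3.36, 3.01 and 2.45 TPM in PRP libraries 1 to 4, against 2.35, 2.06, 3.37 and 2.88 TPM in plasma libraries and 1.76, 1.09, 1.19 and 1.99 TPM in control libraries. The groups did not overlap, but plasma library 2 was only 1.04 times control library 4. The means were 2.95 ± 0.377 TPM in PRP, 2.66 ± 0.581 TPM in plasma and 1.51 ± 0.438 TPM in control (SD, n = 4 each). The ratio of means was 1.955 for PRP over control and 1.768 for plasma over control. CCL28 was 0.67 higher on the log2(TPM + 1) scale in PRP than in control (SE 0.14, adjusted p = 0.0012) and 0.55 higher in plasma than in control (SE 0.14, adjusted p = 0.00505). This scale understates changes of low genes. With a pseudocount of 0.1 the differences were 0.95 for PRP against control and 0.80 for plasma against control. limma's voom on the estimated reads gave 1.17 for PRP against control (adjusted p = 5.42e-05) and 1.05 for plasma against control (adjusted p = 0.000189). Unlike TPM, those reads are not divided by effective length. For CCL28 that length was longer by 0.10 on the log2 scale in PRP and by 0.15 in plasma than in control. The voom differences include this shift, and its part was not tested. Within libraries 1 and 2 alone the plasma difference was 0.41 (adjusted p = 0.0877), whereas within libraries 3 and 4 it was 0.69 (adjusted p = 0.0182).

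Treated and control libraries of CCL2, CCL20 and CCL28 did not overlap in either treatment, beside 19% of all genes tested that were higher without overlap in PRP against control and 18.2% in plasma against control. The median log2(TPM + 1) difference over all genes was -0.06 in PRP against control and -0.05 in plasma against control.

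CCL5 (chr17:35871491-35880793, minus strand), the T cell and monocyte attractant, did not pass the test in either treatment. It had 11.1, 10.3, 11.1 and 8.66 TPM in PRP libraries 1 to 4, against 14.1, 11.8, 9.54 and 10.2 TPM in plasma libraries and 13.4, 11.8, 8.86 and 8.52 TPM in control libraries. All 3 groups overlapped, and the first 2 control libraries were above the other 2 control libraries. The means were 10.3 ± 1.14 TPM in PRP, 11.4 ± 2.02 TPM in plasma and 10.7 ± 2.36 TPM in control (SD, n = 4 each). The log2(TPM + 1) difference was -0.03 in PRP against control (95% interval -0.33 to 0.27, adjusted p = 0.862) and 0.10 in plasma against control (95% interval -0.20 to 0.40, adjusted p = 0.588). In fold terms on that scale the intervals ran from 0.793 to 1.21 for PRP and from 0.868 to 1.32 for plasma. Within libraries 1 and 2 the PRP difference was -0.22 (adjusted p = 0.13), and within libraries 3 and 4 it was 0.16 (adjusted p = 0.306).

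Platelet granules are known to carry CCL5 protein, which these transcript data do not measure. Transcripts of platelets were scarce in all groups. Of the 8 platelet markers searched (PPBP, PF4, ITGA2B, GP9, GP1BA, GP1BB, TUBB1 and TREML1), 0 reached the level needed for testing, and PF4, GP9 and TREML1 had 0 reads in all 12 libraries. PPBP, the platelet basic protein, had up to 3 reads in PRP libraries and 0 in plasma and control libraries. GP1BB, a subunit of a platelet adhesion receptor, had 0 to 18.3 estimated reads in PRP libraries and 0 to 13.7 in plasma libraries, against 0 in every control library. GP1BA had at most 2 reads in PRP, 1 in plasma and 0 in control libraries. Other markers were highest in control. ITGA2B averaged 0.320 TPM in PRP, 0.446 TPM in plasma and 0.561 TPM in control. TUBB1 averaged 0.0105 TPM in PRP, 0.0029 TPM in plasma and 0.0225 TPM in control. The part of platelet transcripts in the members' differences was not tested. The summed level of the list was 0.424 to 1.28 TPM in PRP, 0.353 to 1.36 TPM in plasma and 0.488 to 0.718 TPM in control.

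**Figure D2:**
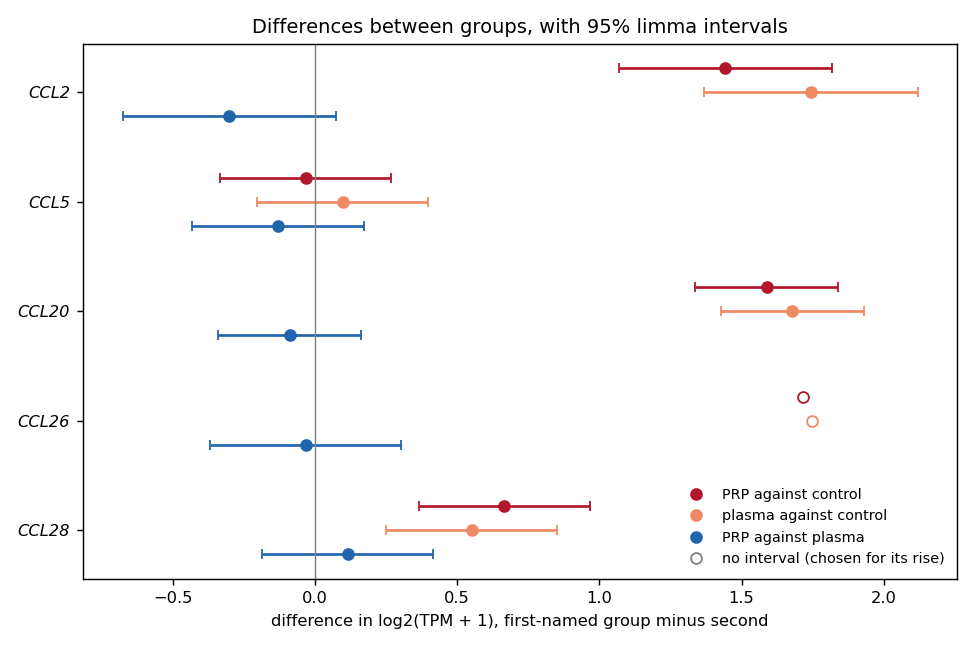
Differences in log2(TPM + 1) for the 5 members (horizontal axis, first-named group minus second) in PRP against control, plasma against control and PRP against plasma, with 95% limma intervals. CCL26 has open points without intervals against control because it was chosen by its rise, and all 5 intervals for PRP against plasma cross 0.

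Between the treatments, 0 of the 5 members passed the test, and limma passed 8 of 12517 genes higher in PRP than in plasma (0.0639%) and 0 lower (0%). At an unadjusted p under 0.05 there were 999 of 12517 genes. With no difference at all, a share of about 0.05 of the genes would fall under that threshold. The log2(TPM + 1) difference of CCL2 in PRP minus plasma was -0.30 (95% interval -0.68 to 0.07, adjusted p = 0.718). CCL20 differed by -0.09 (interval -0.34 to 0.16, adjusted p = 0.926) and CCL26 by -0.03 (interval -0.37 to 0.30, adjusted p = 0.99). CCL5 differed by -0.13 (interval -0.43 to 0.17, adjusted p = 0.896) and CCL28 by 0.12 (interval -0.19 to 0.42, adjusted p = 0.914). These intervals leave room for differences in either direction and do not show that the treatments act alike.

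The CCL2 comparison between treatments depended on which libraries were used. Libraries 1 and 2 averaged 73.8 TPM in PRP and 126.6 TPM in plasma, a log2(TPM + 1) difference of -0.77 (adjusted p = 0.0343). Libraries 3 and 4 averaged 83.2 TPM in PRP and 74.0 TPM in plasma, a difference of 0.17 (adjusted p = 0.733). CCL2 was thus lower in PRP in the first pair and passed the test there, but not in the second pair. The pairs were chosen by the likeness of libraries 3 and 4 in these data, so these p-values are a description only. Against control CCL2 passed in both pairs, by 1.18 in the first pair and 1.71 in the second in PRP, and by 1.95 in the first and 1.54 in the second in plasma.

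The order of levels was not the same in treated and control libraries. From high to low it was CCL2, CCL26, CCL20, CCL5, CCL28 in 4 of 4 PRP libraries and in 3 of 4 plasma libraries, while the other plasma library had CCL20 above CCL26. In control libraries CCL2 was followed by CCL5 in 4 of 4, with CCL26 above CCL20 in 2 of 4 and CCL28 last. CCL26 and CCL20 are neighbours whose ranges overlapped in every group. CCL5 and CCL20 did not overlap in PRP or in control, but did in plasma. The 5 genes together summed to 120.4 ± 4.69 TPM in PRP, 144.4 ± 34.1 TPM in plasma and 48.5 ± 7.96 TPM in control (SD, n = 4 each). CCL2 made up 62.9 to 69.9% of that sum in PRP libraries, 62.8 to 73.8% in plasma libraries and 55.6 to 61.4% in control libraries.

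Most of the other CC chemokine genes were near or at 0. Of 21 others in the files, 18 were under 1 TPM in every library, and 8 had 0 reads in all 12. CCL7, whose gene begins 13 kb beyond CCL2 and whose protein also attracts monocytes, had at most 2 reads in PRP, 0 in plasma and at most 4 in control. The remaining 3, CCL17, CCL22 and CCL24, were tested. CCL24 (eotaxin-2, a CCR3 ligand like CCL26) lies 21.8 kb beyond CCL26 and had the opposite sign. It averaged 1.55 ± 0.463 TPM in PRP, 1.47 ± 0.271 TPM in plasma and 2.25 ± 0.610 TPM in control. The log2(TPM + 1) difference was -0.35 for PRP against control (adjusted p = 0.0667) and -0.39 for plasma against control (adjusted p = 0.0491). The plasma call was lost in 13 of 23 alternative settings, and PRP passed with the replicate block (adjusted p = 0.0406). CCL22, a CCR4 ligand, averaged 1.62 ± 0.230 TPM in PRP, 1.58 ± 0.199 TPM in plasma and 2.11 ± 0.336 TPM in control, with adjusted p = 0.0652 for PRP and 0.0534 for plasma. CCL17, the other CCR4 ligand, averaged 1.16 ± 0.509 TPM in PRP, 1.14 ± 0.629 TPM in plasma and 1.07 ± 0.218 TPM in control. The median log2(TPM + 1) difference of the 3 was -0.25 in PRP and -0.26 in plasma, beside the medians over all genes given above.

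**Figure D3:**
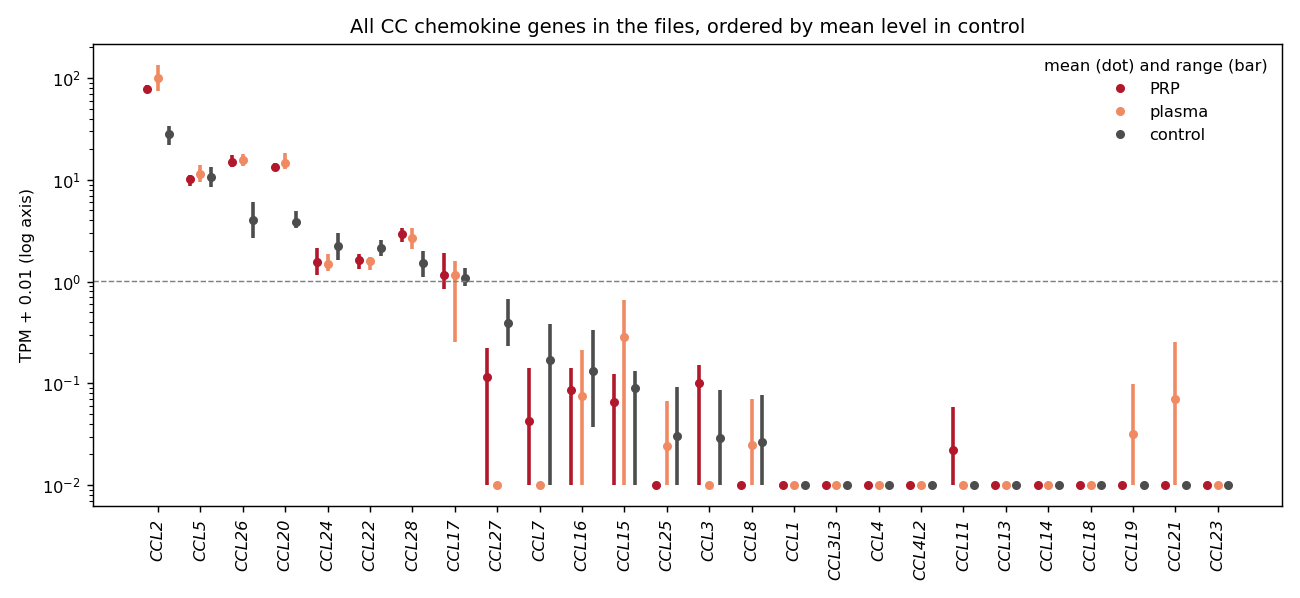
TPM + 0.01 (log axis) of all 26 CC chemokine genes in the files, with the mean (dot) and range (bar) of 4 libraries in PRP, plasma and control from left to right, ordered by mean control level, and a dashed line at 1 TPM. Of the 21 genes that are not members, 18 stay below the line in every library.

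The receptors of these ligands were scarce in the carcinoma cells. Of 15 CC chemokine receptors and decoy receptors searched, 0 reached the level for testing and all were under 1 TPM in every library. CCR3, the receptor of CCL26 and CCL28, had 17 to 28 reads in PRP libraries, 18 to 28 in plasma libraries and 22 to 39 in control libraries. CCR6, the receptor of CCL20, reached 0.208 TPM in PRP, 0.175 TPM in plasma and 0.269 TPM in control. CCR2 had 0 reads in PRP and plasma libraries and up to 3 in control libraries, and the decoy receptor ACKR1 had 0 reads in all 12. The summed level of the list was 1.36 to 2.96 TPM in PRP, 2.01 to 2.27 TPM in plasma and 1.64 to 2.36 TPM in control.

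Among genes of NF-kB signalling, 12 of 28 tested were higher and 7 lower in PRP than in control, and 12 were higher and 5 lower in plasma than in control. Over all genes 21.7% were higher and 31.5% lower in PRP, and 20.3% higher and 29% lower in plasma. These shares belong beside the counts of this list and of each list below. The counts are a description, and no list was tested as a set. Inhibitors moved both ways, with NFKBIA, NFKBIE, TNFAIP3 and TNIP1 higher in both treatments and NFKBIB lower. NFKBIE passed narrowly (adjusted p = 0.0366 for PRP and 0.0412 for plasma). NFKBIA, which holds NF-kB in the cytoplasm, averaged 196.9 ± 4.15 TPM in PRP, 206.3 ± 18.6 TPM in plasma and 120.8 ± 5.70 TPM in control (adjusted p = 2.1e-07 for PRP and 1.3e-07 for plasma). NFKBIZ, a nuclear cofactor, averaged 6.995 TPM in PRP, 8.23 TPM in plasma and 3.54 TPM in control, log2(TPM + 1) differences from control of 0.82 in PRP and 1.02 in plasma. BCL3, a related nuclear cofactor, averaged 38.7 TPM in PRP, 38.1 TPM in plasma and 19.7 TPM in control, and TLR3, the receptor for double-stranded RNA, 18.6 TPM in PRP, 21.0 TPM in plasma and 10.2 TPM in control. NFKBIB, another inhibitor, was lower, at 51.0 TPM in PRP, 53.8 TPM in plasma and 63.7 TPM in control. The subunit NFKB2 was also lower, at 49.6 TPM in PRP, 50.7 TPM in plasma and 73.6 TPM in control. Of the other subunits, RELA was lower and NFKB1 and RELB were higher in both treatments, and REL passed in neither. The median log2(TPM + 1) difference over the 28 was 0.03 in PRP and 0.07 in plasma.

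Cytokines known to raise chemokine messages moved in both directions, with 4 of 7 tested higher and 2 lower in each treatment. IL1A, an epithelial alarm cytokine, averaged 13.8 ± 1.19 TPM in PRP, 13.1 ± 2.30 TPM in plasma and 6.35 ± 1.51 TPM in control (adjusted p = 3.24e-05 for PRP and 7.76e-05 for plasma). TNF was low, at 1.19 TPM in PRP, 1.30 TPM in plasma and 0.363 TPM in control, and passed in both. It had at most 0.446 TPM in control libraries, so it met the level for testing only through treated libraries. IL6 averaged 8.23 TPM in PRP, 8.46 TPM in plasma and 3.96 TPM in control, and IL1B 25.0 TPM in PRP, 21.8 TPM in plasma and 14.6 TPM in control. The 2 that were lower were IL18 and LIF. IL18 averaged 68.7 TPM in PRP, 69 TPM in plasma and 85.2 TPM in control, and LIF 3.89 TPM in PRP, 4.43 TPM in plasma and 6.90 TPM in control. With median centring, 1 was lower in plasma. The median of the 7 log2(TPM + 1) differences was 0.68 in PRP and 0.57 in plasma. The list of interferon regulatory factors and STATs also holds KLF13, which is neither. Of 13 tested in that list, 6 were higher and 2, STAT5B and KLF13, were lower in each treatment. IRF1, an interferon-responsive activator, averaged 70.8 TPM in PRP, 69.7 TPM in plasma and 45.1 TPM in control. IRF9, a subunit of an interferon-activated transcription factor complex, averaged 64.1 TPM in PRP, 76.2 TPM in plasma and 50.8 TPM in control. The list's median difference was 0.08 in PRP and 0.10 in plasma.

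**Figure D4:**
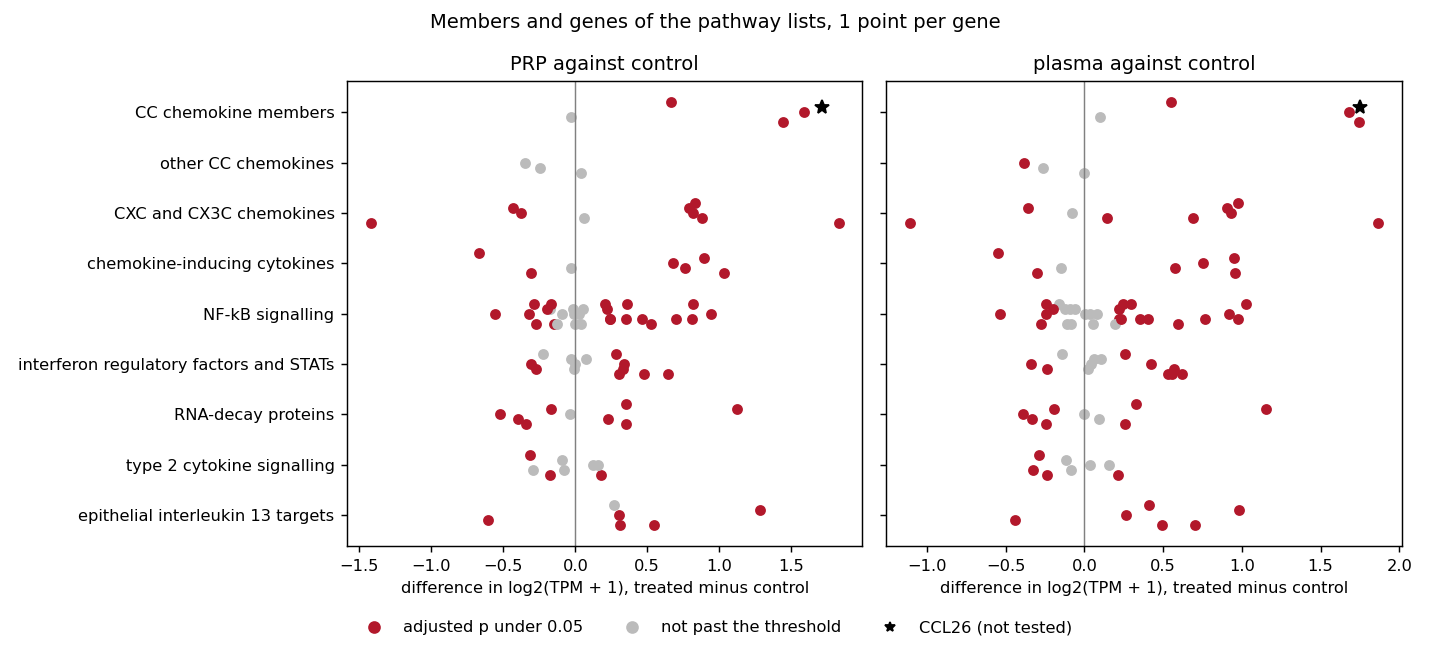
Difference in log2(TPM + 1) (horizontal axis, treated minus control) for each member and each tested gene of 8 lists, with PRP against control on the left and plasma against control on the right, and red points for adjusted p under 0.05. CCL2 and CCL20 lie at 1.44 and 1.59 in PRP and at 1.74 and 1.68 in plasma, and most lists hold points on both sides of 0.

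Transcripts of the CCL26 inducers IL4 and IL13 were scarce in these cells, and protein brought in with plasma or PRP was not measured. IL4 had 0 reads in all libraries and IL13 had at most 1, in a control library. Of 8 tested genes of type 2 cytokine signalling, 1 was higher and 2 lower in PRP than in control, and 1 was higher and 3 lower in plasma than in control. With median centring the counts were 2 higher and 1 lower in PRP and 2 higher and 2 lower in plasma, and JAK1, a kinase of this pathway, was the added gene (adjusted p = 0.0372 in PRP and 0.0243 in plasma). STAT6, the factor that acts on CCL26, was higher in both treatments, at 82.5 ± 4.41 TPM in PRP, 84.6 ± 4.16 TPM in plasma and 72.9 ± 2.59 TPM in control (adjusted p = 0.00616 for PRP and 0.00209 for plasma). IL4R, the receptor chain shared by IL4 and IL13, averaged 37.1 TPM in PRP, 35.7 TPM in plasma and 42.1 TPM in control, lower in PRP (adjusted p = 0.0375) and in plasma (adjusted p = 0.0101). Its PRP call was lost in 10 of 23 alternative settings, median centring among them. The kinase TYK2 averaged 28.4 TPM in PRP, 28.98 TPM in plasma and 35.8 TPM in control, also lower in both. SOCS1, a feedback inhibitor, had 3.66 TPM in PRP, 3.56 TPM in plasma and 4.76 TPM in control (adjusted p = 0.0597 for PRP and 0.0444 for plasma), and the plasma call was lost in 13 of 23 alternative settings. The median log2(TPM + 1) difference of the 8 was -0.09 in PRP and -0.10 in plasma.

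Epithelial genes known to respond to IL13 moved in both directions, with more of the tested ones higher than lower. Of 13 listed, 6 were tested, of which 4 were higher and 1 lower in PRP, and 5 were higher and 1 lower in plasma. Within libraries 1 and 2 alone, 3 were higher and 1 lower in PRP, and 5 were higher and 0 lower in plasma. Within libraries 3 and 4 alone, 2 were higher and 1 lower in each treatment. SERPINB2, a protease inhibitor, averaged 7.75 ± 0.854 TPM in PRP, 6.10 ± 0.437 TPM in plasma and 2.61 ± 0.412 TPM in control (adjusted p = 1.63e-07 for PRP and 2.45e-06 for plasma). ALOX15, a lipid oxygenase, averaged 5.23 TPM in PRP, 6.07 TPM in plasma and 4.07 TPM in control, and its PRP call (adjusted p = 0.0378) was lost in 9 of 23 alternative settings. DPP4, a peptidase that trims chemokines, averaged 14.2 TPM in PRP, 13.8 TPM in plasma and 11.3 TPM in control. CDH26, a cadherin, was lower, at 3.17 TPM in PRP, 3.72 TPM in plasma and 5.37 TPM in control. POSTN, CLCA1 and MUC5AC had 0 reads in all 12 libraries. The median log2(TPM + 1) difference of the 6 was 0.31 in PRP and 0.45 in plasma.

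Among proteins that bind or degrade unstable messages, through AU-rich elements or stem-loops, 4 of 9 were higher and 4 lower in PRP, and 3 higher and 4 lower in plasma. ZC3H12A (regnase-1, an RNase that degrades inflammatory messages at stem-loops) averaged 24.7 ± 0.275 TPM in PRP, 25.5 ± 4.70 TPM in plasma and 10.8 ± 1.01 TPM in control (adjusted p = 9.21e-07 for PRP and 9.01e-07 for plasma). ZFP36L2, which binds ATTTA, was lower, at 76.8 TPM in PRP, 84.5 TPM in plasma and 111.1 TPM in control. KHSRP and HNRNPD, further AU-rich binding proteins, were higher. KHSRP averaged 299.3 TPM in PRP, 293.7 TPM in plasma and 233.8 TPM in control, and HNRNPD 242.7 TPM in PRP, 226.9 TPM in plasma and 189.8 TPM in control. The median log2(TPM + 1) difference of the 9 was -0.04 in PRP and near 0, at -0.0023, in plasma.

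Among CXC and CX3C chemokines, 5 of 9 tested were higher and 3 lower in PRP, and 6 were higher and 2 lower in plasma. CXCL1, CXCL2, CXCL3, CXCL8 and CXCL10 were higher in both treatments. In control libraries CXCL2 had at most 0.789 TPM and CXCL10 at most 0.736 TPM. These genes met the level for testing only through treated libraries. The median log2(TPM + 1) difference of the 9 was 0.79 in PRP and 0.69 in plasma. CXCL1, a neutrophil attractant, averaged 98.7 ± 4.32 TPM in PRP, 104.1 ± 30.1 TPM in plasma and 27.2 ± 4.24 TPM in control, while CXCL14 was lower, at 4.62 TPM in PRP, 5.96 TPM in plasma and 14.8 TPM in control, as was CX3CL1, at 23.2 TPM in PRP, 24.6 TPM in plasma and 31.8 TPM in control.

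The genes whose profiles lay nearest to each member were found from the root mean square over 12 libraries of the difference in log2(TPM + 1), each gene set to its own control mean, among 12333 genes. Since the members' own differences set this order, it is a description. For CCL2 they were SERPINA3, a secreted protease inhibitor, at 0.18, LTB, lymphotoxin beta, at 0.24, and CCL20 at 0.24. For CCL20 they were LRG1, a secreted glycoprotein, at 0.16, SERPINA3 at 0.20 and the keratin KRT6B at 0.23, and CCL2 followed at 0.24. For CCL26 they were LRG1 at 0.26, FUT3, a fucosyltransferase, at 0.30 and KRT6B at 0.32, with CCL20 in place 6 and CCL2 in place 11. LRG1 averaged 15.9 ± 0.264 TPM in PRP, 14.9 ± 1.65 TPM in plasma and 3.97 ± 0.369 TPM in control, levels near those of CCL20 and CCL26. For CCL28 the nearest were the zinc transporter SLC39A2 at 0.11, GGT6 at 0.14 and GAD1, a glutamate decarboxylase, at 0.14. For CCL5, which did not pass the test, they were SIX4, STAT2 and RC3H1, all at 0.10.

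The squamous identity of the cells was checked with 8 markers, all of which were tested, and 2 were higher and 2 lower in each treatment. KRT5, a basal keratin, averaged 7677 TPM in PRP, 7645 TPM in plasma and 4784 TPM in control, and TP63 stood at 96.9 TPM in PRP, 100.4 TPM in plasma and 96.9 TPM in control. KRT17, a keratin of stressed epithelium, was lower, at 1647 TPM in PRP, 1793 TPM in plasma and 2696 TPM in control, as was the desmosomal cadherin DSG3, at 27.2 TPM in PRP, 27.3 TPM in plasma and 33.8 TPM in control. Of 10 leukocyte markers, 3 were tested, and 2 of those were higher in both treatments, beside 21.7% of all genes higher in PRP and 20.3% in plasma. They were CD68 (69.7 TPM in PRP, 74.1 TPM in plasma and 42.6 TPM in control) and CD14 (5.49 TPM in PRP, 4.89 TPM in plasma and 1.79 TPM in control). LYZ was tested and did not pass. The summed leukocyte list was 73.2 to 85.4 TPM in PRP, 73.9 to 90.7 TPM in plasma and 42.3 to 53.5 TPM in control. NKG7, a marker of cytotoxic lymphocytes, had 0 reads in all libraries, and PTPRC, the pan-leukocyte CD45, had 2 to 7 reads in PRP, 2 to 9 in plasma and 25 to 35 in control. Of the 4 erythroid markers HBB and ALAS2 had 0 reads in all libraries. HBA1, a globin, had 9 to 24 reads in PRP, 0 to 17 in plasma and 0 to 20.0 in control and passed in no comparison. HBA2, whose sequence is nearly identical so that reads may be split between the genes, had 0 reads in PRP, at most 10 in plasma and at most 11 in control. The endothelial cadherin CDH5 was higher in both treatments, at 24.6 TPM in PRP, 25.4 TPM in plasma and 9.44 TPM in control, while PECAM1 had at most 8.89 reads in any library. VWF, the other endothelial marker tested, averaged 7.25 TPM in PRP, 7.95 TPM in plasma and 7.28 TPM in control. It did not pass (adjusted p = 0.926 for PRP and 0.417 for plasma). Within libraries 3 and 4 alone, CDH5 and VWF were both higher in plasma. Of 5 fibroblast markers, 2 were tested. DCN was lower in PRP (0.480 TPM, against 1.10 TPM in control), a call lost without the libraries numbered 1 and within libraries 3 and 4. COL1A1 averaged 11.1 TPM in plasma and 8.88 TPM in control (adjusted p = 0.0508), and passed with median centring, voom and the replicate block. The part of these markers in the members' differences was not tested.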

How the data were processed

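PolyA RNA was captured and sequenced, per the labels' protocols, in 12 libraries of PE/CA-PJ41 cells. The submitters' processing notes name Salmon and the build hg38, and its version, transcript set and use of strand are not given in the sources used here. Per the file headers, the deposited files give transcript length, effective length, TPM and an estimated count of reads for each gene. Their decimal commas could not be read as counts by the automatic unit check, so the main test used TPM and no negative binomial count model was run, while limma's voom on the estimated counts served as an alternative. For 20375 of 20375 genes, dividing reads by effective length and rescaling gave back the deposited TPM.

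limma-trend (limma 3.58.1, R 4.3.3) was run on log2(TPM + 1), with a pseudocount of 1, for 12517 genes that reached 1 TPM in 4 or more libraries. The model had a term for each group, leaving 9 residual degrees of freedom, and two-sided p-values were adjusted over all genes by Benjamini-Hochberg at 0.05. The script was tested on simulated data. Alternatives covered the pseudocount, the low-value filter, median centring, voom on estimated counts, a replicate block and leaving out libraries.

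The members and lists were chosen with earlier results of these data known. Named genes are the members, the 3 nearest profiles of each, up to 4 genes a list with the smallest adjusted p, genes needed for an absence, other CC chemokines reaching 1 TPM, and platelet, leukocyte and erythroid markers. CDH5, PECAM1, DCN, COL1A1, KRT5, KRT17, DSG3, TP63, JAK1, NFKBIB and NFKB2 were named after their values were seen. So were STAT5B, KLF13, IL18, LIF, CXCL2, CXCL3 and CXCL10. The same holds for NFKBIE, TNFAIP3, TNIP1, NFKB1, RELA, RELB, REL and VWF. The RefSeq promoter table matched 3 of the 5 members, with 4 windows. Some genes that this rule names are not reported here.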

Additional observations from a re-analysis of the deposited data

Results flagged for a closer look

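Within the 4 control libraries, CCL20 in library 2 stood apart from the others at 4.89 TPM, against 3.38 to 3.61 TPM in the other 3. Of 15 groups of member values examined, 1 exceeded the critical value of Dixon's test, and chance flags about 1 in 20 groups. Without that library the difference of CCL20 from control kept its direction and passed the test in both treatments.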

How the results depend on the processing

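In each of 23 alternatives, CCL2, CCL20 and CCL28 kept their direction against control and passed the test, except CCL28 in plasma within libraries 1 and 2, at 0.41 on the log2(TPM + 1) scale (adjusted p = 0.0877). CCL5 against control did not pass in any alternative, and its sign turned. In PRP it was 0.032 with median centring, 0.030 with voom, 0.042 without the 3 libraries numbered 1 and 0.16 within libraries 3 and 4, and with 1 library left out it ran from -0.12 (without control library 4) to 0.077 (without control library 1). In plasma, with 1 library left out, it ran from -0.0005285 (without plasma library 1) to 0.21. For PRP against plasma, CCL2 was -0.77 within libraries 1 and 2, where it was the 1 member that passed, and 0.17 within libraries 3 and 4. CCL20 was 0.049 within libraries 3 and 4 and ran from -0.14 to 0.019 with 1 library left out. CCL26 was 0.051 within libraries 1 and 2 and ran from -0.10 to 0.032 with 1 library left out, and CCL28 was -0.15 within libraries 3 and 4. The cause was not tested. The genes picked by the naming rule lost some calls besides those given above. DPP4 in both treatments and HNRNPD, IL1B and TYK2 in plasma did not pass within libraries 3 and 4. CDH26 and SLC39A2 in plasma did not pass within libraries 1 and 2. Genes named after their values were seen are not covered here.

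The 8 genes past the threshold in PRP against plasma became 4 with no low-value filter, 4 with 1 TPM required in all 12 libraries, 16 when fitted on the 8 libraries compared, 1 without the 3 libraries numbered 1, 3 within libraries 1 and 2, and 0 within libraries 3 and 4. With 1 library left out the count ran from 4 (without PRP library 2 or plasma library 4) to 14 (without control library 1), and it was 5 without PRP library 3 or plasma library 2. Of the CXC and CX3C list in PRP, 5 higher and 3 lower became 6 and 2 with median centring and with voom. Within libraries 3 and 4 that list had 3 higher and 2 lower in PRP, and 4 higher and 2 lower in plasma. Some of its calls as higher were therefore lost there. The share of passing genes that were higher was 40.8% in PRP and 41.2% in plasma, but 54.0% in PRP and 54.1% in plasma after median centring, and 50.4% in PRP and 50.9% in plasma with voom.

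Replicate numbers are shared across groups in the labels, but nothing says that they mark shared cultures. Correlations of same-numbered deviations ran from -0.07 to 0.30 and were positive in 11 of 12 pairs, but not all were above 0.1, so the numbers were not taken to pair the libraries. As a hint from the data, in PRP against plasma 5 of 8 libraries, in PRP against control 5 of 8 and in plasma against control 4 of 8 correlated best with their own number. With a replicate block, 7105 genes passed in PRP against control, 6600 in plasma against control and 9 in PRP against plasma, beside 6652, 6173 and 8 without it, and the block changed no call of a member (3 in PRP, 3 in plasma, 0 between the treatments). It added a call of CCL24 as lower in PRP than in control. The 15 to 38 reads of CCL26 in control libraries and the 55.0 to 95 reads of CCL28 there limit the precision of both.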
